A study of Homo sapiens with 6 samples.

Results

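Nonsense-mediated decay destroys messenger RNAs whose reading frame ends too early, and the 9 genes described here encode its core machinery: UPF1, UPF2, UPF3A, UPF3B, SMG1, SMG5, SMG6, SMG8 and SMG9. They were taken by name from the deposited tables, where each had 1 row, out of 60835 distinct gene names, and all 9 were among the 15346 genes that passed the filter on low counts. RNA came from HEY, an established human ovarian cancer line, in 6 libraries: 3 received the control siRNA siNC and 3 received siCCNL2, directed at CCNL2, a cyclin gene linked to transcription and splicing. The protocol text gives 48 h of siRNA treatment and names the CCNL2 siRNA for every library, so the groups rest on the titles and the time in the controls is taken to be equal. Both groups share the cell line and the culture medium, no genotype other than the siRNA is given, and each group is a model of transient and partial knockdown in 1 line. No label states that replicate libraries were grown apart, and each p-value therefore reflects variation among these libraries alone, which may be technical.

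In this pathway a ribosome that stops upstream of an exon junction complex, or far from the poly(A) tail, recruits the RNA helicase UPF1. UPF2 and the UPF3 proteins bridge UPF1 to the exon junction complex, the kinase SMG1 with its regulators SMG8 and SMG9 phosphorylates UPF1, and phosphorylated UPF1 then recruits the endonuclease SMG6, or SMG5, which leads to deadenylation and decapping. The messenger RNAs of several of these factors (UPF1, UPF2, UPF3B, SMG1, SMG5 and SMG6 among them) are known to be targets of the pathway themselves and to accumulate when it is impaired, a feedback that makes their level a customary read of decay activity.

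CCNL2, the targeted gene, stood at 261, 267 and 246 CPM (counts scaled to a common library size with TMM factors) in siNC and at 203, 182 and 186 CPM in siCCNL2. Each siCCNL2 library was lower than every siNC library, and CCNL2 fell by 26.3% (log2 fold change -0.44, SE 0.04, adjusted p = 2.15e-08), so CCNL2 RNA was reduced and not removed. In such bulk samples, fewer cells of a type and less RNA per cell cannot be told apart. Total counts ran from 13596286 to 18095529 per library and counts over the 9 decay factors from 14229 to 20033. Of the markers used to check the line, the ovarian carcinoma gene PAX8 (131 and 116 CPM on average in siNC and siCCNL2) and the keratin gene KRT8 (998 and 847 CPM) were present. The epithelial genes EPCAM (1.84 and 2.72 CPM) and CDH1 (0.104 and 0.126 CPM) were near 0. Of the ovarian carcinoma genes, MUC16 (0.0197 and 0.174 CPM) and MSLN (1.88 and 1.56 CPM) were near 0 and WT1 (8.64 and 6.33 CPM) was low. Part of each label thus lacks its markers. Summed epithelial markers, 5 of 6 tested, ran from 2020 to 2100 CPM in siNC and from 1530 to 1680 CPM in siCCNL2. Leukocyte markers, 0 of 4 tested, summed to at most 1.04 CPM and erythroid markers, 0 of 3 tested, to at most 0.253 CPM. Endothelial markers, 3 of 3 tested, summed to 115 to 120 CPM in siNC and to 45.3 to 54.8 CPM in siCCNL2, nearly all of it CDH5 (114 and 47.2 CPM), while PECAM1 and VWF averaged at most 2.38 CPM. The part of these marker differences in the results on decay factors was not tested.

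The order of expression was read on the authors' TPM-like score, which divides by gene length and can therefore be compared between genes. In siNC, SMG5 had the highest score (196 ± 3.65, mean ± SD, n = 3), followed by UPF3A (108 ± 2.96) and UPF1 (91.2 ± 2.08). SMG1 (52.2 ± 3.98), UPF2 (48.8 ± 4.23) and SMG8 (48.8 ± 3.64) formed a middle group whose neighbours overlapped in range and were not separated by their spread. UPF3B (36.7 ± 2.24), SMG6 (28.7 ± 0.777) and SMG9 (20.3 ± 1.77) were lowest, each apart from its neighbours in siNC. SMG5 thus stood 9.67 times above SMG9, and the 9 factors lay between the 55.2th and the 94.7th percentile of tested genes on this score. In siCCNL2 the order was the same apart from SMG1 (50.8 ± 5.58) and UPF2 (52.9 ± 3.76), which exchanged places within overlapping ranges. SMG8 (42.5 ± 1.95) then overlapped UPF3B (41.1 ± 1.61) and no longer overlapped UPF2.

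Among the UPF genes, UPF1 and UPF3A were nearly level between the groups, and UPF2 and UPF3B had slightly higher values in siCCNL2 that did not pass the test. UPF1 (ENSG00000005007, chromosome 19, 18831959 to 18868230 of GRCh38, plus strand), the helicase at the centre of the pathway, stood at 161, 154 and 159 CPM in siNC and at 159, 167 and 167 CPM in siCCNL2. The ranges overlapped, and the log2 fold change was 0.05 with a 95% interval of -0.03 to 0.14 (adjusted p = 0.342). In fold terms that interval runs from 0.979 to 1.1.

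UPF2 (ENSG00000151461, chromosome 10, 11920022 to 12043170, minus strand), the adaptor between UPF1 and UPF3, stood at 94.6, 89.6 and 80.8 CPM in siNC and at 101, 92.2 and 95.5 CPM in siCCNL2. Of the siCCNL2 libraries 2 lay above all siNC libraries and replicate 2 lay below siNC replicate 1. UPF2 had a log2 fold change of 0.13 (SE 0.06, adjusted p = 0.0794), and the unadjusted 95% interval of 0.01 to 0.24 left 0 just outside. With 1 library left out, UPF2 passed the threshold without siNC replicate 1 (log2 fold change 0.18, adjusted p = 0.027) and without siCCNL2 replicate 2 (0.16, adjusted p = 0.0433). Over its 17 alternatives the adjusted p ran from 0.027 to 0.372.

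UPF3A and UPF3B are paralogues, of which UPF3B is the stronger activator of decay and UPF3A a weaker or, in some settings, opposing form. UPF3B (ENSG00000125351, chromosome X, 119834022 to 119852998, minus strand) stood at 29, 28.5 and 26.2 CPM in siNC and at 30.5, 33.8 and 30.5 CPM in siCCNL2. It was the 1 member of the 9 whose groups did not overlap, where 43.9% of all tested genes showed the same separation. Its log2 fold change of 0.17 (SE 0.07, 95% interval 0.02 to 0.33) did not pass after adjustment (adjusted p = 0.0701), with a permutation p (exact, two-sided) of 0.1, the lowest possible for 3 against 3 libraries. No alternative brought UPF3B past the threshold (adjusted p 0.0637 to 0.243). UPF3A (ENSG00000169062, chromosome 13, 114281601 to 114305817, plus strand) stood at 85.8, 86.4 and 83.3 CPM in siNC and at 84.5, 90.0 and 76.5 CPM in siCCNL2, so that siCCNL2 held both the highest and the lowest value. Its log2 fold change was -0.03 (95% interval -0.14 to 0.09, adjusted p = 0.745), and the sign turned without siCCNL2 replicate 3 (0.03, adjusted p = 0.706).

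**Figure D1:**
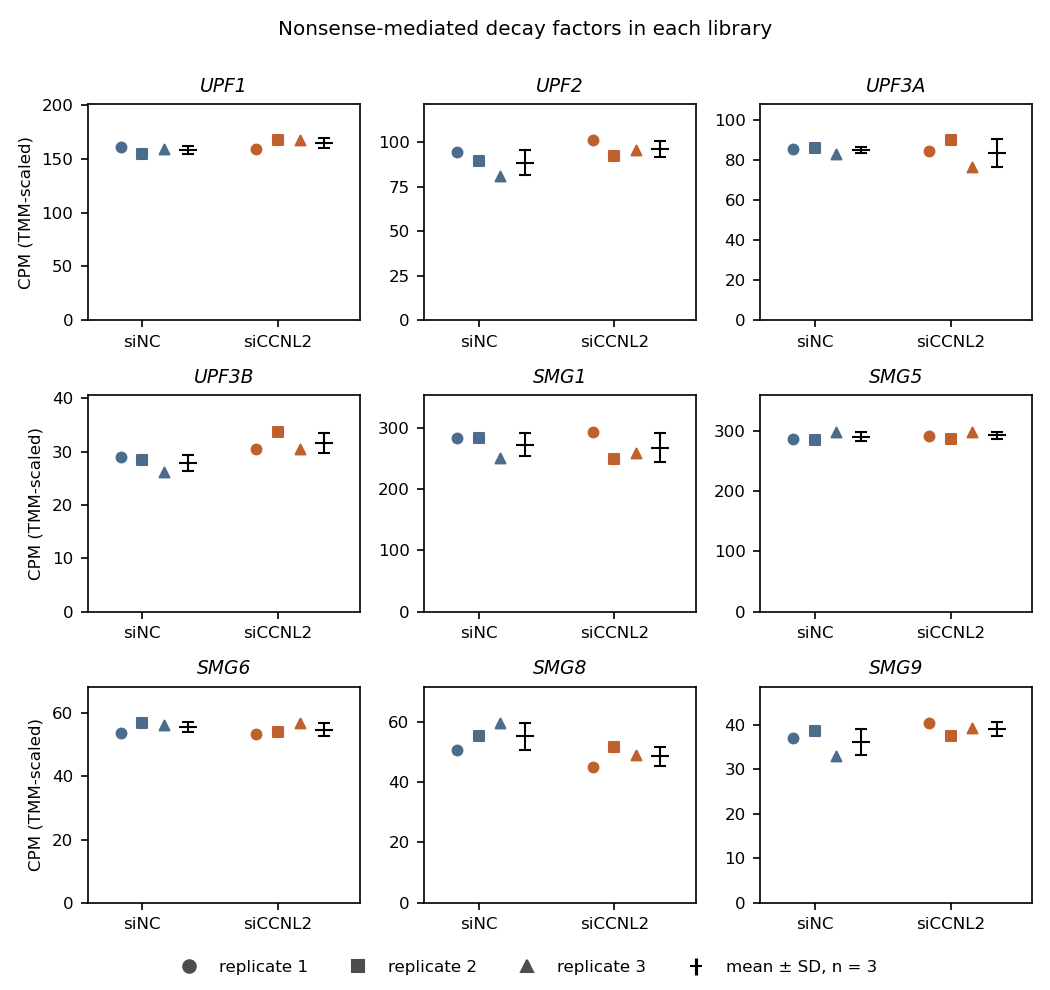
TMM-scaled CPM (vertical axis, from 0) of the 9 decay factors in 3 siNC and 3 siCCNL2 libraries, with 1 symbol per replicate and the mean ± SD beside each group. Only UPF3B has groups that do not overlap, and SMG8 is lower in siCCNL2 with an overlap at siCCNL2 replicate 2 (51.5 CPM) and siNC replicate 1 (50.6 CPM).

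In the SMG1 kinase complex, SMG8 was lower in siCCNL2 while SMG1 and SMG9 did not pass the test. SMG8 (ENSG00000167447, chromosome 17, 59209400 to 59215239, plus strand), which restrains the kinase, stood at 50.6, 55.3 and 59.6 CPM in siNC and at 45.0, 51.5 and 48.8 CPM in siCCNL2. SiCCNL2 replicates 1 and 3 were lower than every siNC library, and siCCNL2 replicate 2 lay above siNC replicate 1. SMG8 fell by 12.4% (55.2 ± 4.53 to 48.4 ± 3.29 CPM, mean ± SD, n = 3 each), a log2 fold change of -0.19 (SE 0.07, 95% interval -0.33 to -0.06, adjusted p = 0.027), with an exact permutation p of 0.2. It was the 1 called gene of the 9, and it ranked 4427 by p among the 15346 genes tested. The direction was the same under all 17 alternatives. The call was lost without siNC replicate 2 (log2 fold change -0.19, adjusted p = 0.078), siNC replicate 3 (-0.13, 0.168), siCCNL2 replicate 1 (-0.13, 0.155) or siCCNL2 replicate 3 (-0.20, 0.0733), by the DESeq2 Wald test (adjusted p = 0.0523) and on log2 of the score plus 1 (0.0545). Another gene, AC099850.2, overlaps 5827 bases of the SMG8 span on the same strand and shares 422 exonic bases with it in GENCODE. It was listed at 0 in every library. The SMG8 level is uncertain, because how reads in the shared bases were assigned is not given in the sources used here.

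SMG1 (ENSG00000157106, chromosome 16, 18804860 to 18926408, minus strand), the kinase that phosphorylates UPF1, stood at 283, 284 and 251 CPM in siNC and at 294, 249 and 259 CPM in siCCNL2. The groups overlapped fully, with the highest and the lowest value both in siCCNL2, and the log2 fold change was -0.03 (SE 0.05, 95% interval -0.14 to 0.08, adjusted p = 0.725). SMG1 has near-identical pseudogene copies on the same chromosome that can share its reads. The 7 copies named SMG1P1 to SMG1P7 carried counts equal to 3.87% to 5.32% of the SMG1 count per library, with SMG1P1 and SMG1P3 listed at 0. Summing them with SMG1 gave a log2 fold change of -0.04 (adjusted p = 0.596). Among the copies, SMG1P7 fell from 3.72 ± 0.771 CPM in siNC to 2.34 ± 0.595 CPM in siCCNL2, a log2 fold change of -0.65 (SE 0.23, adjusted p = 0.0345), while the other 4 copies with counts did not pass the test.

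SMG9 (ENSG00000105771, chromosome 19, 43727983 to 43754962, minus strand), the partner of SMG8 in the complex, stood at 37.0, 38.5 and 32.9 CPM in siNC and at 40.4, 37.4 and 39.2 CPM in siCCNL2. Of the siCCNL2 libraries 2 lay above all siNC libraries. Its log2 fold change was 0.11 (SE 0.07, 95% interval -0.03 to 0.25, adjusted p = 0.228).

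SMG5 and SMG6, which act after UPF1 is phosphorylated, were level between the groups. SMG5 (ENSG00000198952, chromosome 1, 156249224 to 156282825, minus strand), which brings in deadenylation and decapping, stood at 287, 285 and 299 CPM in siNC and at 292, 287 and 299 CPM in siCCNL2. All 3 siCCNL2 libraries lay within the siNC range. With 3844 to 5316 counts per library it was the most precisely measured of the 9, with a log2 fold change of 0.01 and a 95% interval of -0.07 to 0.08, or 0.955 to 1.06 in fold (adjusted p = 0.873). A value so near 0 took either sign across the alternatives, from -0.01 to 0.03. SMG6 (ENSG00000070366, chromosome 17, 2059839 to 2303785, minus strand), the endonuclease that cuts the target near the stop codon, stood at 53.8, 56.9 and 56.4 CPM in siNC and at 53.3, 54.2 and 57.0 CPM in siCCNL2 (log2 fold change -0.02, 95% interval -0.14 to 0.09, adjusted p = 0.803). The end of the SMG6 span overlaps HIC1, which lies on the opposite strand, by 3403 bases. HIC1 shares 2419 exonic bases with SMG6 and was itself called higher (log2 fold change 0.18, adjusted p = 0.0275). The SMG6 value is uncertain, because whether strand was used in counting is not given in the sources used here.

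Across the 9 factors 0 rose, 1 fell (11.1%) and 8 did not pass the test, where 33.6% of all tested genes were called, 17.2% higher and 16.5% lower. At an unadjusted p under 0.05, 2 were higher and 1 was lower, where 42.0% of all tested genes passed that threshold in either direction. Limma-voom likewise called 0 higher and 1 lower, and the DESeq2 Wald test called 0 in either direction. The shares of all tested genes above are from edgeR alone. Over the 17 alternatives, 1869 to 2673 genes were called higher and 1743 to 2783 lower, against 2634 and 2525 by the main test. The median log2 fold change was 0.01 against 0.00 for all tested genes, and the median absolute value was 0.05 against 0.19. The absolute change of SMG8 of 0.19 was the largest of the 9, and 49.6% of tested genes had a change of that size or smaller. These shares describe the 9 genes, which were chosen with earlier results of these data known, and do not set them apart from other genes. Of the 6 members known for feedback (UPF1, UPF2, UPF3B, SMG1, SMG5 and SMG6), edgeR's quasi-likelihood test called 0, against 33.6% of all tested genes. Limma-voom and the DESeq2 Wald test also called 0 of them. By edgeR, 2 (UPF2 and UPF3B) had an unadjusted p under 0.05, a threshold passed by 42.0% of all tested genes. The median log2 fold change of the 6 was 0.03, with 4 values above 0 and 2 below. The upper ends of their 95% intervals on the log2 scale were 0.14 for UPF1, 0.24 for UPF2, 0.33 for UPF3B, 0.08 for SMG1 and SMG5 and 0.09 for SMG6.

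**Figure D2:**
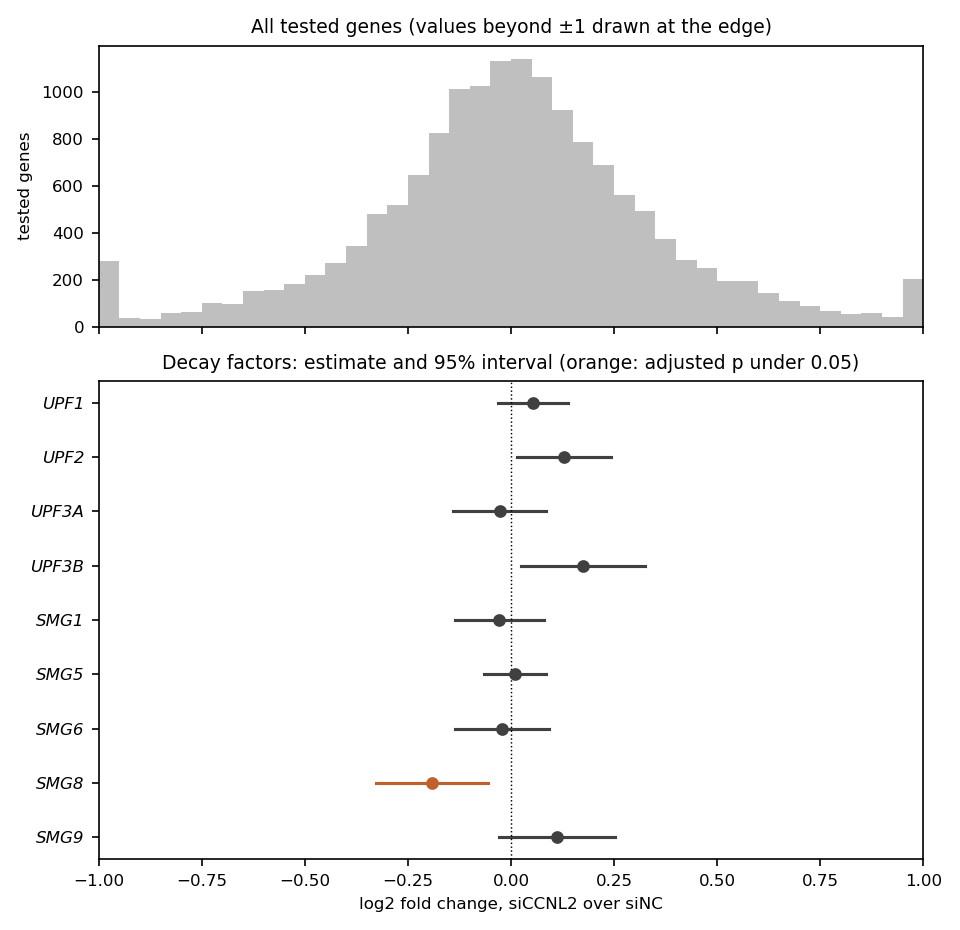
Log2 fold changes of siCCNL2 over siNC: a histogram of all 15346 tested genes (top, values beyond ±1 drawn at the edge) and the 9 decay factors with unadjusted 95% intervals (bottom). The 9 estimates lie between -0.19 (SMG8, in orange, the 1 called gene) and 0.17 (UPF3B), and the intervals of UPF1, UPF3A, SMG1, SMG5, SMG6 and SMG9 include 0.

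Several factors were highest or lowest in the same library of a group. With 3 libraries per group, a given library is the highest or the lowest for most genes. The share over all tested genes was not computed, so these orders do not show a library effect particular to the factors. SiNC replicate 3 was the lowest siNC library for UPF2, UPF3A, UPF3B, SMG1 and SMG9, and the highest for SMG5 and SMG8. SiCCNL2 replicate 1, the library with the most counts, was the highest siCCNL2 library for UPF2, SMG1 and SMG9, and the lowest for UPF1, SMG6 and SMG8. Without siNC replicate 3 the log2 fold change was 0.07 for UPF2, 0.05 for SMG9 and -0.13 for SMG8, in each case the value of that gene nearest to 0 when 1 library was left out. For UPF3B it was 0.13 both without siNC replicate 3 and without siCCNL2 replicate 2. By the root mean square difference of log2 CPM centred on siNC over the 6 libraries, the patterns nearest to that of SMG8 among 15346 tested genes were those of TK2 (0.0193), LRRC7 (0.026) and SLC35G1 (0.0281), none of which was called (adjusted p 0.257, 0.473 and 0.0971).

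Ratios between factors within a library do not depend on the scaling between libraries. They were added as a description after the members' values had been seen, for 4 pairs of functional partners. By exact two-sided permutation with Benjamini-Hochberg adjustment over the 4 pairs, adjusted p was 0.4 for UPF3B to UPF3A and SMG8 to SMG9. It was 0.6 for the pairs with UPF1. With 3 against 3 libraries the unadjusted p cannot fall under 0.1, so no pair could pass. The ratio of UPF3B to UPF3A on the TPM-like score was 0.35, 0.341 and 0.326 in siNC and 0.373, 0.388 and 0.412 in siCCNL2. All siCCNL2 libraries lay above all siNC libraries, and the log2 difference of the mean log ratios was 0.21, between 0.17 and 0.24 without each library in turn. UPF3B alone was separated in the same way, so this ratio is not a result apart from it. The share of other gene pairs whose ratios separate was not computed. The ratio of SMG8 to SMG9 was 2.16, 2.27 and 2.86 in siNC and 1.76, 2.18 and 1.97 in siCCNL2, 0.814 times as high, with an overlap at siCCNL2 replicate 2. SMG1 to UPF1 (0.573 ± 0.0443 and 0.541 ± 0.0639) and UPF2 to UPF1 (0.535 ± 0.0421 and 0.563 ± 0.0436) overlapped between the groups.

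**Figure D3:**
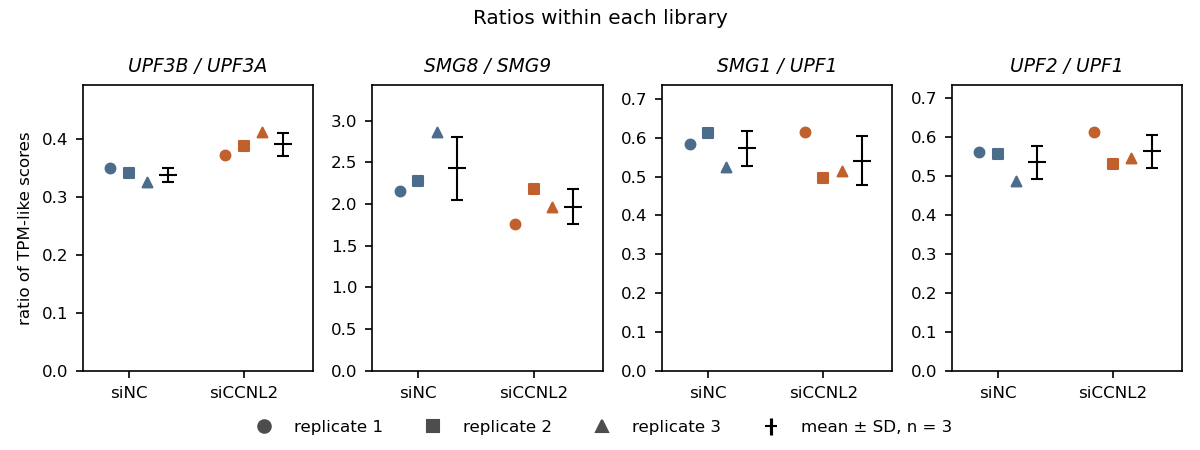
Ratios of the authors' TPM-like scores within each library (vertical axis, from 0) for 4 pairs of decay factors, with 1 symbol per replicate and the mean ± SD of each group. The ratio of UPF3B to UPF3A is higher in every siCCNL2 library (0.373 to 0.412) than in every siNC library (0.326 to 0.35), and the other 3 pairs overlap. The score of UPF3B alone separates in the same way.

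Long 3' UTRs, upstream start codons and exon junctions past the stop codon are known features that make a transcript a target of the pathway, and they were read from 1 principal coding transcript per gene in GENCODE release 29. Across the 9 factors the lengths of these transcripts were proportional to count over score, with deviations from the mean ratio of at most 1.6%. The 3' UTR was longest in SMG1 (4716 bases, 92.0th percentile of tested coding genes) and SMG9 (3604 bases, 86.1th percentile) and exceeded 1000 bases in 6 of 9 factors, against 53.9% of 12307 tested coding genes. It was shortest in SMG8, the 1 called gene, at 237 bases (12.9th percentile). UPF3A (900 bases) and UPF3B (856 bases) lay below the median of 1140 bases. At least 1 upstream ATG was found in 4 of 9 factors, against 53.6% of tested coding genes. UPF2 held 13 in a 5' UTR of 474 bases, and SMG1, SMG5 and SMG9 held 1 each. None of the 9 chosen transcripts had an exon junction more than 50 bases past the stop codon, which 0.244% of tested coding genes had. Transcripts annotated as decay targets are a separate type and could not be chosen, so this absence was largely fixed by the choice. Transcripts annotated as decay targets were listed for SMG1, SMG8 and SMG9, 1 each, that is for 3 of 9 factors against 42.9% of tested coding genes. The deposited counts pool all transcripts of a gene, so a shift between a stable and an unstable isoform of 1 gene would not be seen.

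Related genes were grouped by role, and in most groups members moved both ways. Among 8 other decay factors 4 rose and 1 fell (62.5% called, against 33.6% of all tested genes), and the median log2 fold change was 0.06 (0.00 over all tested genes). PNRC2, an adaptor to decapping, rose from 115 ± 2.59 to 132 ± 0.909 CPM (log2 fold change 0.19, adjusted p = 9.89e-04), and MOV10, a helicase that works with UPF1, fell from 52.0 ± 2.69 to 41.2 ± 1.24 CPM (-0.34, adjusted p = 9.72e-05). RUVBL2 (0.12) and ICE1 (0.12), named after their values were seen, rose less, and each call was lost without 4 of the 6 libraries. The count of 4 became 1 without siNC replicate 1 or siCCNL2 replicate 3 and 2 without siNC replicate 2 or siCCNL2 replicate 2. Leaving out 1 library also lowered the calls over all tested genes. They ran from 2147 to 2492 higher and from 2032 to 2276 lower, against 2634 and 2525 with all 6 libraries.

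Of 10 genes of the exon junction complex and its periphery, 2 rose, 2 fell and 6 were not called, so that 40.0% were called against 33.6% of all tested genes. In its core, CASC3 rose from 120 ± 4.65 to 147 ± 4.68 CPM (log2 fold change 0.29, adjusted p = 1.38e-05). RBM8A, the core subunit Y14, fell from 18.2 ± 0.616 to 15.3 ± 1.48 CPM (-0.25, adjusted p = 0.0444), but lost the call without any library other than siCCNL2 replicate 1 (adjusted p 0.0571 to 0.227). Without siCCNL2 replicate 1 the number that rose was 4. With 1 library left out, 2147 to 2492 of all tested genes were called higher, against 2634 with all libraries. Of the peripheral splicing proteins, RNPS1 rose (0.18) and PNN fell (-0.26). Of 10 termination and cap binding genes, 4 rose and 2 fell (60.0% called, against the same 33.6%). CTIF, a factor of the first round of translation, rose from 18.9 ± 0.484 to 28.6 ± 1.83 CPM (0.60, adjusted p = 2.11e-06), and PABPC4, a cytoplasmic poly(A) binding protein, from 250 ± 19.2 to 314 ± 10.9 CPM (0.33, adjusted p = 2.87e-06). The release factors GSPT1 (0.17) and ETF1 (0.14), named after their values were seen, rose as well. NCBP2, the small subunit of the nuclear cap binding complex, fell (-0.20, adjusted p = 4.62e-04), as did PABPC1 (-0.08, adjusted p = 0.0196), which lost its call without siNC replicate 1 or siCCNL2 replicate 1 or 3 (adjusted p 0.051 to 0.115). Of 4 further partners of UPF1 (STAU1, STAU2, ZC3H12A and SLBP), 0 were called by edgeR, limma-voom or the DESeq2 Wald test. By edgeR 0 of them had an unadjusted p under 0.05. Over all tested genes edgeR called 33.6%, and 42.0% had such a p, from which so few genes cannot be set apart.

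The enzymes that degrade the targeted RNA were called in both directions. Of 17 genes of decapping, deadenylation and 5'-to-3' decay, 4 rose and 6 fell (58.8% called, against 33.6% of all tested genes), with a median of -0.08. CNOT8, a catalytic deadenylase subunit, fell most, from 65.0 ± 1.77 to 45.0 ± 0.541 CPM (log2 fold change -0.53, adjusted p = 3.56e-08), and EDC4, a scaffold of decapping, was lower as well (-0.31, adjusted p = 5.5e-04). EDC3 (0.22) and LSM1 (0.28), both decapping activators, rose, and lost their calls without 3 and 5 of the 6 libraries (adjusted p 0.0597 to 0.0747 and 0.0661 to 0.144). The count of 4 that rose fell to 0 without siNC replicate 2 or siCCNL2 replicate 3, to 1 without siNC replicate 1 or 3 and to 2 without siCCNL2 replicate 2. Of 16 genes of the exosome, the SKI complex and ribosome rescue 15 were tested, of which 1 rose and 5 fell (40.0% called, against 33.6%), with a median of -0.09. EXOSC1, an exosome cap subunit, fell from 44.4 ± 2.91 to 35.1 ± 2.66 CPM (-0.34, adjusted p = 4.08e-04) and HBS1L, a ribosome rescue factor, from 106 ± 2.96 to 90.3 ± 2.05 CPM (-0.24, adjusted p = 2.7e-04). PELO, the partner of HBS1L, rose by 0.18 (adjusted p = 0.0314) but lies inside ITGA1 on the same strand, which was called lower, and lost its call without siNC replicate 2 or siCCNL2 replicate 2 or 3 (adjusted p 0.0833 to 0.193). The 5 that fell were 3 without siNC replicate 1 or siCCNL2 replicate 2 or 3. For both groups these losses came while calls over all tested genes dropped too. With 1 library left out, 2147 to 2492 genes were called higher and 2032 to 2276 lower, against 2634 and 2525.

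**Figure D4:**
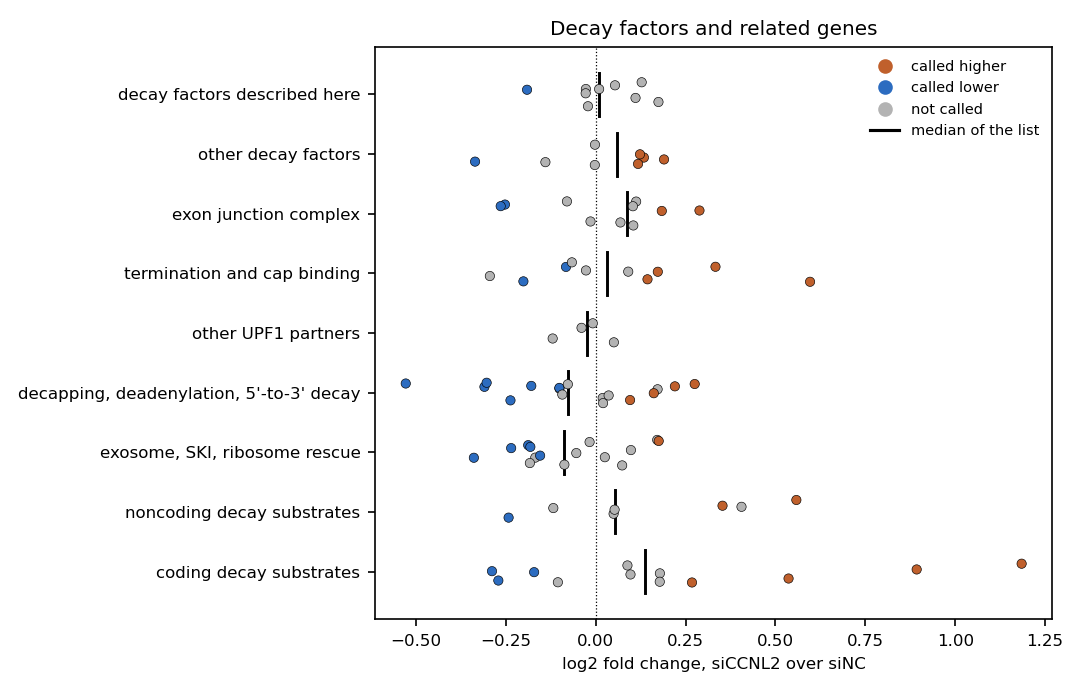
Log2 fold change of each tested gene (points, siCCNL2 over siNC) in the 9 decay factors and in 8 related groups, with the vertical position within a group spread at random and a bar at each group's median. The 9 decay factors lie between -0.19 and 0.17, and the groups below them hold called genes on both sides except the further partners of UPF1.

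Known substrates of the pathway gave no common direction. Of 7 noncoding RNAs removed by decay, mostly hosts of small nucleolar RNAs, 2 rose, 1 fell and 4 were not called (42.9% called, against 33.6% of all tested genes). GAS5, the best known of them, averaged 126 ± 3.03 CPM in siNC and 131 ± 5.27 CPM in siCCNL2, a log2 fold change of 0.05 (adjusted p = 0.42) that ran from 0.03 without siNC replicate 2 to 0.09 without siCCNL2 replicate 3. SNHG12 rose from 13.8 ± 1.26 to 20.5 ± 2.24 CPM (0.56, adjusted p = 1.17e-04) and SNHG1 from 109 ± 2.62 to 139 ± 3.24 CPM (0.35, adjusted p = 5.3e-07). SNHG15 fell (-0.24, adjusted p = 0.0109), a call lost without siNC replicate 2 (0.0552) or siNC replicate 3 (0.0691). Of 12 coding genes described as substrates 4 rose, 3 fell and 5 were not called (58.3% called, against 33.6%), with a median of 0.14. The 4 that rose were DDIT3 (log2 fold change 1.18), TRIB3 (0.89), ATF3 (0.54) and ATF4 (0.27), which are also genes of the integrated stress response. Leaving out siNC replicate 1 or siCCNL2 replicate 2 ended the call of ATF3 (adjusted p 0.108 and 0.0904). DDIT3 averaged 1.4 and 3.21 CPM and overlaps MBD6 and MARS1 on the opposite strand, so its counts are uncertain. MBD6 (35.2 CPM) was called higher (0.58), and MARS1 (193 CPM) was not called (-0.06). The 3 that fell were MAP3K14 (-0.29), GADD45B (-0.27) and GADD45A (-0.17). ATF3, ATF4 and GADD45A were named after their values were seen. Gene counts do not separate synthesis from decay, and these lists were written with earlier results on these libraries known.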

How the data were processed

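Gene counts and a TPM-like score of 6 libraries were used as deposited. The counts are whole reads per gene, not normalized, per the file headers and values, and the score was scaled by the authors to gene length and library total (it sums to 1000000 over distinct names). Tools listed in the submitters' processing notes, without their roles, are HTSeq 2.0.1, HISAT2 and fastp 0.23.0, and the build is GRCh38. The annotation release and the strand setting are not given in the sources used here. Repeated names (62710 rows, 60835 names) held equal values and were used once. Dividing count by score split into a gene and a library factor, with relative deviations of at most 1.32e-09 over 10902 genes. No unmapped sample column was found.

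Tests used edgeR 4.0.16 in R 4.3.3 (filterByExpr, TMM, quasi-likelihood), fitted on all 15346 tested genes with Benjamini-Hochberg adjustment and a threshold of 0.05. Standard errors are the log2 fold change over the square root of F, and intervals are unadjusted. On counts simulated for this comparison with 200 changed genes among 15083 tested, the test found 64% of 50 genes at 1.25-fold, 72% at 1.5-fold and 98% at each of 2-fold and 3-fold. It made 13 false calls. The smallest simulated fold lies above the largest change of a member (1.14-fold), and 33.6% of genes were called in the real data. The simulated shares therefore do not give the power for the members. The 17 alternatives were other scalings, filters and pseudocounts, DESeq2 1.42.0, limma 3.58.1, a stricter threshold of 0.01, a replicate block and leaving out each library. Single values were compared by exact two-sided permutation tests.

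The members and gene lists were chosen with earlier results of these data known. Named genes were the 9 members, CCNL2, SMG1 pseudogene copies, genes overlapping a member, up to 2 called genes per direction and list with the largest change, and the 3 patterns nearest to the member with the smallest p. A further 13 related genes and 4 ratios were added after their values were seen. Overlapping genes are named only where counts or exons bear on a result. Of 38 related genes examined, 15 overlap another tested gene. The values of 1 gene counted in the lists are not reported here. All 93 list names matched the tables exactly. Coordinates are those of the deposited table. Transcript features come from GENCODE release 29 on GRCh38, matched by Ensembl identifier. No sequences are printed, since the counts are per gene and point to no site.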

Additional observations from a re-analysis of the deposited data

How the results depend on the processing

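UPF1, UPF2, UPF3B, SMG8 and SMG9 kept their direction under all 17 alternatives. Values near 0 changed sign: UPF3A without siCCNL2 replicate 3 (0.0346), SMG1 without siNC replicate 1 (0.0009), siNC replicate 2 (0.0021) or siCCNL2 replicate 2 (0.0234), and SMG6 without siCCNL2 replicate 1 (0.003). SMG5 did so with upper-quartile factors (-0.0091), on the log2 score scale with a pseudocount of 1 or 0.1 (-0.0015 in both), without siNC replicate 2 (-0.0041) and without siCCNL2 replicate 3 (-0.0045). With 1 library left out, log2 fold changes ran from -0.0759 to 0.0346 for UPF3A, -0.0999 to 0.0234 for SMG1, -0.0045 to 0.0336 for SMG5, -0.0486 to 0.003 for SMG6 and -0.1097 to 0.0132 for SMG1 summed with its copies. Members called lower went from 1 to 0 by the DESeq2 Wald test, on either score scale and at an adjusted p under 0.01. Other decay factors called higher went from 4 to 1 with upper-quartile factors, no count filter, the DESeq2 Wald test, either score scale or the 0.01 threshold, and those called lower from 1 to 2 with upper-quartile factors or no composition factor. Exon junction genes called lower went from 2 to 1 with no count filter, the DESeq2 Wald test, either score scale or 0.01, and termination genes called lower from 2 to 1 on either score scale or at 0.01. Decapping and deadenylation genes called higher went from 4 to 2 with upper-quartile factors, no count filter or the DESeq2 Wald test, to 1 on either score scale and to 0 at 0.01. Exosome and rescue genes called higher went from 1 to 0 with upper-quartile factors, the DESeq2 Wald test, either score scale or 0.01, and those called lower from 5 to 3 on either score scale or at 0.01. Noncoding substrates called lower went from 1 to 0 at 0.01. The causes were not tested. With 1 library left out, the counts called higher ran from 0 to 1 for members and for autoregulated factors, 1 to 3 for other decay factors, 2 to 4 for exon junction genes, 0 to 4 for decapping genes, 0 to 1 for exosome genes and 3 to 5 for coding substrates. Those called lower ran from 0 to 1 for members, 1 to 2 for other decay factors, exon junction genes and termination genes, 3 to 6 for exosome genes, 0 to 1 for noncoding substrates and 3 to 4 for coding substrates. Upper-quartile factors called 2368 genes higher and 2783 lower, against 2634 and 2525. Over the 17 alternatives, 1869 to 2673 of all tested genes were called higher and 1743 to 2783 lower. With 1 library left out, 2147 to 2492 were called higher and 2032 to 2276 lower. The counts of the lists changed along with these totals and were not compared with them setting by setting. Of 37 called related genes examined, 22 kept their call under every alternative and 0 changed sign. With the replicate number as a block, 1 member and autoregulated factor was called higher against 0 without it (UPF2, log2 fold change 0.1281, adjusted p = 0.0487), with 2673 genes higher and 2561 lower. Same-numbered libraries correlated at 0.0412, 0.0222 and 0.0359 in their deviations, and every library correlated best with its own number. These correlations over all tested genes are small and do not settle whether the libraries were paired, which was not tested.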
